A study of Mus musculus with 4 samples.

Results

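The genes described here build the structures that hold a simple epithelium together and shape its upper surface: keratins, tight junctions, adherens junctions, desmosomes and the brush border of the gut. They were taken from a list of 37 genes, chosen by symbol for these structures with earlier results of these data known. Of these, 35 had a probe set with a single gene symbol on the array, out of 12393 genes measured in this way. No signals were analysed for Cgn and Myo1a, which enter only the promoter counts. Each gene was represented by its brightest probe set.

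The values come from tumour-associated macrophages, sorted by flow cytometry from gastrointestinal stromal tumours (GIST) of mice and profiled on Affymetrix 3' expression arrays. GIST is a sarcoma of the gut wall that usually depends on an activated Kit receptor kinase. One group of 8 mice received vehicle and the other group of 8 received imatinib, an inhibitor of Kit and related kinases, dissolved in its drinking water at 600 mg/L, and all were killed after 2 weeks. All animals were tumour-bearing GIST mice in pathogen-free housing. The labels give no Kit allele, strain, age, sort marker or tumour site.

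The design text says that the sorted cells were pooled within each group and that each pool was run on 2 arrays, from 200 ng of RNA per array, while the titles call the arrays biological replicates. The p-values here therefore reflect array-to-array spread alone, which may be technical, and 2 arrays per group limit the precision. The deposited signals had a 2% trimmed mean of about 500.3 on every array, with medians of 141 to 152 with vehicle and 122 to 134 with imatinib. Bacterial and phage control transcripts had a mean log2 difference (imatinib minus vehicle) of -0.32. The 3'/5' signal ratio of Gapdh, which rises when RNA is degraded, was 2.91 and 2.76 (vehicle) against 2.34 and 2.09 (imatinib). The sorted cells carried their defining markers: Csf1r, a receptor that macrophages need for survival, had signals of 27103 and 28656 (vehicle) against 31382 and 29178 (imatinib), Adgre1, which encodes F4/80, had 7639 and 8457 (vehicle) against 10324 and 10799 (imatinib), and the lysozyme gene Lyz2 had 13019 and 13488 (vehicle) against 24643 and 23367 (imatinib).

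In an epithelial cell, keratin filaments run between desmosomes, where desmoplakin and plakophilins anchor them to cadherins of the desmoglein and desmocollin families. Adherens junctions, built on E-cadherin, and tight junctions, built on claudins, occludin and zonula occludens scaffolds, form a belt near the apical surface that fixes polarity and controls what passes between cells. On the apical surface of enterocytes, actin bundles held by villin, ezrin and myosins support the microvilli. Most of these genes serve as epithelial markers, although a few, such as F11r, Ezr and Ceacam1, are also used by leukocytes.

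Every one of the 35 measured genes had both imatinib arrays below both vehicle arrays, which held for 29.9% of the 8145 genes tested. In limma, 32 of the 35 were lower at a Benjamini-Hochberg adjusted p below 0.05, against 8.73% of all tested genes, and none was higher (0 also at an unadjusted p under 0.05), against 6.8% of all tested genes. Ezr, Pkp3 and Ocln did not pass. The median log2 difference, imatinib minus vehicle on the log2(signal + 32) scale, was -1.57 over the 35 genes and -0.02 over all tested genes. The imatinib signal was under 25% of the vehicle signal for 15 genes, against 1.3% of tested genes, between 25% and 50% for 14, and at or above 50% for 6. Among all tested genes 29 of the 35 lay in the lowest 5% of differences, 12 in the lowest 1%, and Krt19 had the lowest difference of any gene.

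All 35 genes passed the signal filter, which used the mean over the 4 arrays at a signal of about 79.8. The imatinib mean alone lay below it for 6 (Krt7, Cldn2, Cldn4, Ocln, Myo5b and Myo7b), so these passed through their vehicle signal and a lower imatinib value was built into their passing; 5 of them were called. Of the 29 genes above the filter in both groups, 27 were called and Ezr and Pkp3 were not. These are bulk measurements of sorted cells, so fewer epithelial cells and less of these transcripts per cell cannot be told apart.

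**Figure D1:**
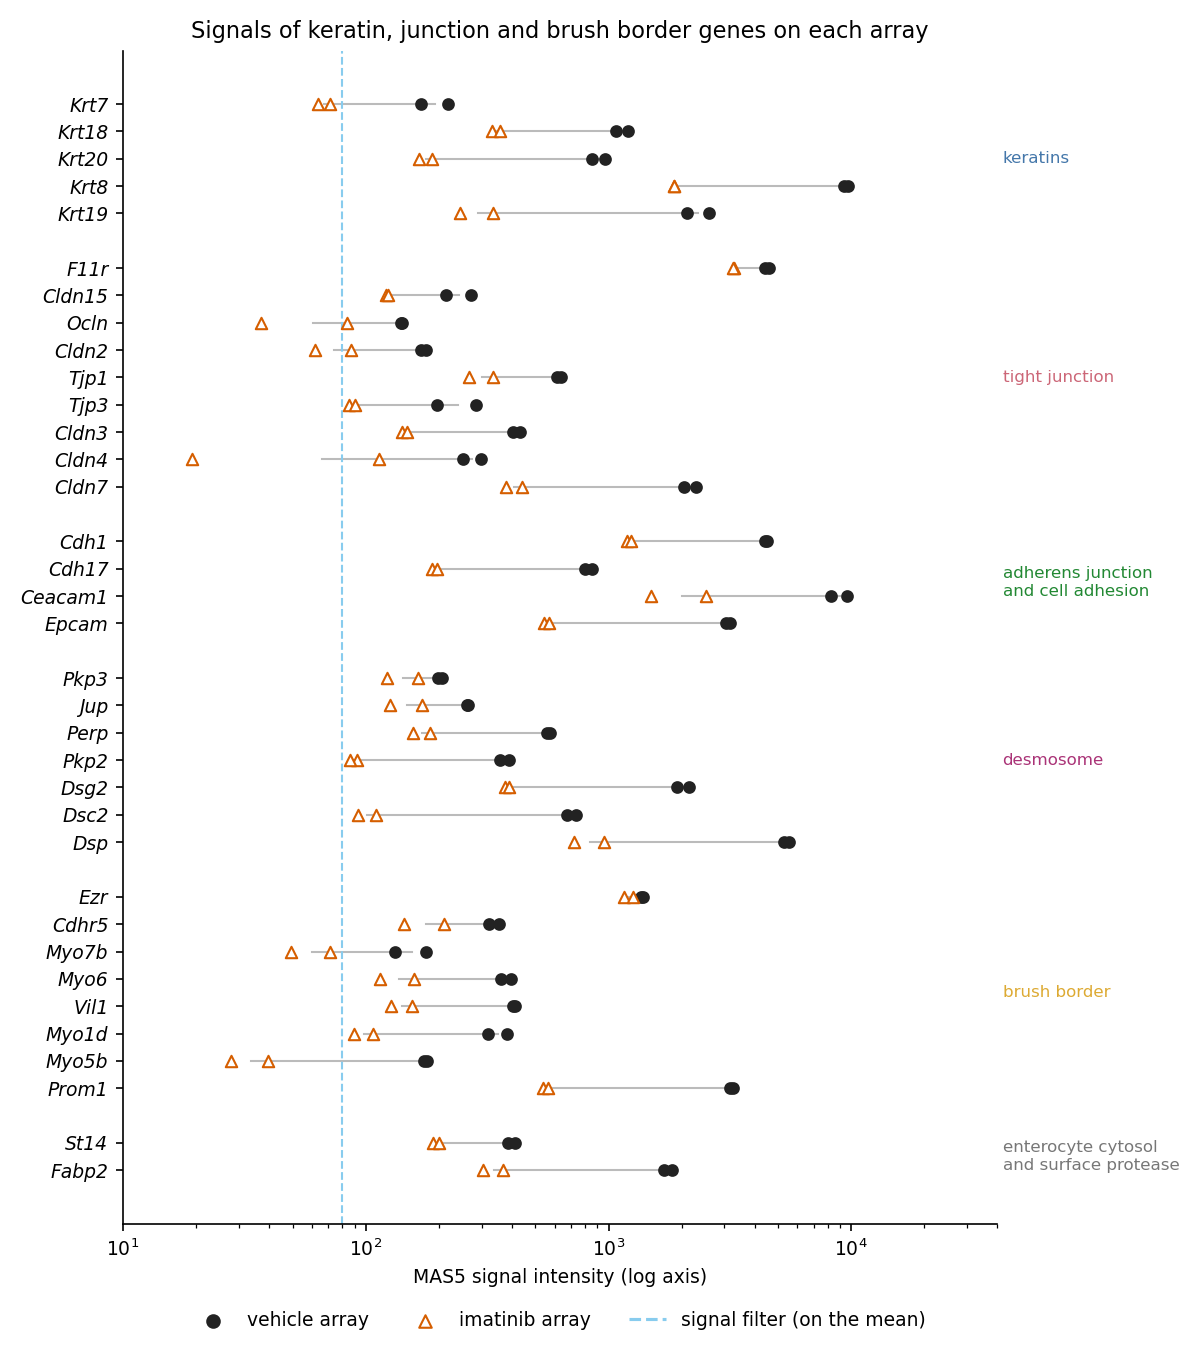
MAS5 signal of the 35 genes on each of the 2 vehicle arrays (filled circles) and 2 imatinib arrays (open triangles) on a log axis, grouped by structure, with grey lines joining the group means and a dashed line at the signal filter of 79.8. All triangles lie to the left of the circles of the same gene, with wide gaps for Krt19, Dsp and Dsc2 and a narrow one for Ezr.

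Promoters are shown for 6 of these genes as a description. They are an adhesion gene, a pair of keratins, a desmosomal gene and a brush border gene, all lower. The last is F11r, which fell least among the genes that passed. The RefSeq table of build GRCm38.p6 held 29 windows for 25 of the 37 genes, each running from 250 bases before an annotated start to 50 bases after it. Cdh1, Cdh17, Dsc2, Dsg2, Krt19, Myo1d, Myo5b, Myo7b, Perp, Pkp2, Pkp3 and St14 had no window there. Cgn and Myo1a had windows but no signal here, so the direction of their change is not known. The windows printed, 5′ to 3′ on the gene's strand, are Epcam at chr17:87635729-87636028 on the plus strand, Krt8 at chr15:102004293-102004592 on the minus strand, Krt20 at chr11:99438104-99438403 on the minus strand, Dsp at chr13:38151044-38151343 on the plus strand, Vil1 at chr1:74409134-74409433 on the plus strand and F11r at chr1:171437311-171437610 on the plus strand. Capitals mark matches on either strand to CACCTG, the core of an E-box bound by zinc finger and basic helix-loop-helix factors, to TATAAA, the core of the TATA box, or to TTTATNG, a core like that of caudal (Cdx) factors.
Epcam: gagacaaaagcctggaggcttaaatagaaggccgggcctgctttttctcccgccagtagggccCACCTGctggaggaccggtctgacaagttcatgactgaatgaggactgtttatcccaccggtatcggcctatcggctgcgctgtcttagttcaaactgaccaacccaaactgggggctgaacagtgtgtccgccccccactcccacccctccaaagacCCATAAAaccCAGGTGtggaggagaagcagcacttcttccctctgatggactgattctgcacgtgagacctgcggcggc
Krt8: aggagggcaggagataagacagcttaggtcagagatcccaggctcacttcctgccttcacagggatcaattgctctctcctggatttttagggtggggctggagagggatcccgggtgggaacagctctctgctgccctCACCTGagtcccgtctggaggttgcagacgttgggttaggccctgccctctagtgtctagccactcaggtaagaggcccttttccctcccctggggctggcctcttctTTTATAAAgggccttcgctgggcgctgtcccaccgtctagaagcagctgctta
Krt20: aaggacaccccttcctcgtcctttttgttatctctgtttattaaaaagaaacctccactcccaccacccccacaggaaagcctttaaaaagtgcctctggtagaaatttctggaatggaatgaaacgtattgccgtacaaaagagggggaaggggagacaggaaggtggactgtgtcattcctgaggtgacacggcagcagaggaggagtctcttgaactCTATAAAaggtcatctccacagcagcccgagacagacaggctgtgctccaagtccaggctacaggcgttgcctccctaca
Dsp: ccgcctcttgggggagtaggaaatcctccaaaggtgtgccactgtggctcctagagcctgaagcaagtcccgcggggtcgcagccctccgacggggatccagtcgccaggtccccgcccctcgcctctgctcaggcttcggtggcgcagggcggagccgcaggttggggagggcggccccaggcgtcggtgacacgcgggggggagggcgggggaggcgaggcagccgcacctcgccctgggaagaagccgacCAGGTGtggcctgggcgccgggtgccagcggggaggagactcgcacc
Vil1: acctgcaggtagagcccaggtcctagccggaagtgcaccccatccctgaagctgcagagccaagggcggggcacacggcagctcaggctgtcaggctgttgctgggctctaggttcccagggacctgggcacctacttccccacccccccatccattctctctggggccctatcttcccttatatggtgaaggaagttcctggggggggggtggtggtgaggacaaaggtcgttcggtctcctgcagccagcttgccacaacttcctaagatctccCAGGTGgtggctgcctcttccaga
F11r: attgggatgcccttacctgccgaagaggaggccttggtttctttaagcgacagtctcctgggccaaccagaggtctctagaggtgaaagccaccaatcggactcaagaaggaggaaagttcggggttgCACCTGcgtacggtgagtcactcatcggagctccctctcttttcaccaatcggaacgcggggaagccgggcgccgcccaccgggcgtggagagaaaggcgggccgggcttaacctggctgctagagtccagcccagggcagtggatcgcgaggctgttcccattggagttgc
The E-box letters CACCTG occurred in 16 of 29 windows (55.2%), against 20.2% of all 32851 windows and 17.5% of those of the other tested genes. The windows with it belong to 14 genes, namely Krt7, Krt8, Krt18, Cldn3, Cldn4, Cldn7, Ocln, Tjp3, F11r, Epcam, Dsp, Prom1, Vil1 and Myo1a. It was absent from the Krt20 window, whose capitals mark overlapping matches to TATAAA and TTTATNG. In Krt8 the capitals cover an E-box and overlapping TATAAA matches on the 2 strands, and in Epcam a pair of E-boxes and 1 match to TTTATNG. Matches to TATAAA occurred in 3 of 29 windows (10.3%), against 13.6% of all 32851 windows and 7.82% of those of the other tested genes, and TTTATNG in 3 of 29 windows (10.3%), against 10.9% of all 32851 windows and 7.08% of those of the other tested genes. Of the other motifs searched on both strands, GGGCGG was in 17 of 29 windows (58.6%), against 35.7% of all 32851 windows and 62.5% of those of the other tested genes, and CCAAT in 8 of 29 windows (27.6%), against 37.4% of all 32851 windows and 36.9% of those of the other tested genes. AACCNGTT, the core of grainyhead factors, was in 3 of 29 windows (10.3%), against 2.09% of all 32851 windows and 1.72% of those of the other tested genes, which were windows of Cgn and Prom1. GGGTGTGGC, like the sites of Klf factors, was in 1 window, that of Tjp3 (1.35% of all windows), and the palindrome of hepatocyte nuclear factors was in none. These are letter matches in 1 window and say nothing about binding. The motifs were chosen with earlier results of these data known. A part of these letters in the lower signals was not tested.

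The 5 keratins were all lower, with a median log2 difference of -2.18 and a range from -2.89 to -1.17. Krt8, the type II keratin of simple epithelia, had signals of 9373 and 9653 under vehicle and 1853 and 1867 under imatinib. Its imatinib signal was 19.6% of the vehicle signal (log2 difference -2.33 ± 0.08, SE, limma adjusted p = 2.5e-08), and the arrays of each group lay within a few percent of each other. Krt18, the type I keratin that pairs with Krt8 in the same filaments, had signals of 1207 and 1071 under vehicle and 332 and 356 under imatinib. It fell to 30.2% of vehicle (log2 difference -1.64 ± 0.12).

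Krt19, a type I keratin of ducts and gut epithelium that lacks the usual tail, had signals of 2587 and 2105 under vehicle and 335 and 244 under imatinib. This was the largest fall of the 35 genes, to 12.3% of vehicle (log2 difference -2.89 ± 0.15, limma adjusted p = 4.3e-07). Krt20, a keratin of differentiated enterocytes and goblet cells, had 966 and 859 (vehicle) against 188 and 166 (imatinib) and fell to 19.4% (log2 difference -2.18 ± 0.14). Krt7, a type II keratin of glandular and ductal epithelium, had 218 and 169 (vehicle) against 63.6 and 71.5 (imatinib), with both imatinib arrays under the signal filter. Its log2 difference was -1.17 ± 0.24 (limma adjusted p = 0.0064), and without vehicle replicate 1 it did not pass (-1.02).

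Tight junction genes had the median closest to 0 of all the structures, -0.99 on the log2 scale, and 8 of the 9 measured were lower. The claudins, which seal the junction or form its pores, spread from -2.33 for Cldn7 to -0.82 for Cldn15. Cldn7, a claudin that also lies along the lateral membrane, had signals of 2051 and 2292 under vehicle and 439 and 377 under imatinib and fell to 18.8% of vehicle (log2 difference -2.33 ± 0.12, limma adjusted p = 3.0e-07). The barrier-forming claudin gene Cldn3 had 433 and 404 (vehicle) against 141 and 148 (imatinib) (log2 difference -1.35 ± 0.16).

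Cldn4, another barrier-forming claudin, had signals of 252 and 297 under vehicle and 19.3 and 113 under imatinib. The imatinib arrays were far apart, so its difference of -1.83 ± 0.39 carried the largest error of the 35 genes, and it was -1.08 without imatinib replicate 1 and -2.58 without imatinib replicate 2. It did not pass without the mean-variance trend or without a filter. The pore-forming claudin genes had smaller differences: Cldn2, a channel for cations and water, had 169.5 and 177 (vehicle) against 62.0 and 86.6 (imatinib) (log2 difference -0.96 ± 0.24). Cldn15, a cation pore of the gut, had 272 and 213 (vehicle) against 122 and 123 (imatinib) (log2 difference -0.82 ± 0.20). Both calls were lost without a filter. The call of Cldn2 was also lost when its probe sets were averaged (-0.46), and that of Cldn15 with spike-in controls set equal (-0.50). Neither call held without vehicle replicate 1 or without imatinib replicate 1, and that of Cldn2 was also lost without vehicle replicate 2, with log2 differences of -0.99 to -0.79 for Cldn2 and -0.81 to -0.67 for Cldn15.

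Occludin, encoded by Ocln, is a membrane protein of the junction strands. Its signals were 141 and 140.1 under vehicle and 36.998 and 83.9 under imatinib, and its log2 difference of -0.95 ± 0.30 missed the threshold (limma adjusted p = 0.055). Its imatinib arrays lay apart, and the difference was -0.58 without imatinib replicate 1, where it did not pass, and -1.32 without imatinib replicate 2, where it did. The zonula occludens scaffolds tie the strands to actin. Tjp1, whose product is made in many cell types, fell from 612 and 638 to 335 and 267, or 48.2% of vehicle. The epithelial scaffold gene Tjp3 fell from 285 and 196 to 85.6 and 90.4, with log2 differences of -0.99 ± 0.15 for Tjp1 and -1.17 ± 0.23 for Tjp3. The call of Tjp3 was lost without vehicle replicate 1 (-0.93).

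F11r encodes JAM-A, an immunoglobulin-family adhesion molecule of tight junctions that leukocytes and platelets also carry. Its signals were 4579 and 4413 under vehicle and 3274 and 3262 under imatinib, so that 72.7% of the vehicle signal remained. The small spread between arrays let a log2 difference of -0.46 ± 0.08 pass (limma adjusted p = 0.0022). The call was lost when array medians or spike-in controls were set equal, with log2 differences of -0.30 and -0.14, when its 2 probe sets were averaged (-0.14), and without the mean-variance trend.

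The 4 genes of adherens junctions and cell adhesion were the most alike, with log2 differences between -2.42 and -1.85 and a median of -2.06. Epcam, an adhesion molecule found on nearly all simple epithelia, had signals of 3058 and 3166 under vehicle and 545 and 569.5 under imatinib and fell to 17.9% of vehicle (log2 difference -2.42 ± 0.09, limma adjusted p = 5.4e-08). Cdh1, which encodes E-cadherin, the adhesion receptor of adherens junctions, had signals of 4400.4 and 4497 (vehicle) against 1194 and 1236 (imatinib), or means of 4449 ± 68.5 with vehicle to 1215 ± 29.8 with imatinib (SD, n = 2). Its log2 difference was -1.85 ± 0.08.

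Cdh17 encodes a cadherin of intestinal epithelium without the usual link to catenins. It had signals of 799 and 858 (vehicle) against 187 and 196 (imatinib) and a log2 difference of -1.94 ± 0.14. Ceacam1, an adhesion molecule of epithelia that activated leukocytes also express, had 8278 and 9624 (vehicle) against 1500.4 and 2513 (imatinib) (log2 difference -2.18 ± 0.18). Its brightest probe set may also detect the closely related gene Ceacam2, which leaves its identity uncertain.

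Desmosomal genes held both some of the largest and some of the smallest differences, from -2.65 to -0.43, with a median of -1.74, and 6 of 7 were lower. Dsp encodes desmoplakin, which joins the desmosome to keratin filaments. Its signals were 5273 and 5526 under vehicle and 955 and 723 under imatinib, and it fell to 15.5% of vehicle (log2 difference -2.65 ± 0.12, limma adjusted p = 1.8e-07).

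The desmosomal cadherins of simple epithelia were lower as well. Dsg2 (desmoglein) had signals of 1922 and 2144 (vehicle) against 376 and 389 (imatinib) (log2 difference -2.32 ± 0.11). Dsc2 (desmocollin) had 672 and 733 (vehicle) against 110.3 and 92.7 (imatinib), and 14.5% of its vehicle signal remained (log2 difference -2.46 ± 0.16). The plaque genes were less uniform. Pkp2, a plakophilin that links desmoplakin to the cadherins, fell from 359 and 390.5 to 92.3 and 86.3 (log2 difference -1.74 ± 0.18).

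Its relative Pkp3 had signals of 207 and 198 (vehicle) against 164 and 122 (imatinib), a log2 difference of -0.43 ± 0.21 that did not pass (limma adjusted p = 0.20), and was -0.26 without imatinib replicate 2. Jup encodes plakoglobin, which serves both desmosomes and adherens junctions and is made outside epithelia too. It had 262 and 264 (vehicle) against 170.4 and 126 (imatinib), with a log2 difference of -0.72 ± 0.20. The imatinib arrays of Jup and Pkp3 lay farther apart than their vehicle arrays. The call of Jup was lost without any one of vehicle replicate 1, vehicle replicate 2 or imatinib replicate 2 (-0.73 to -0.54), and under 4 of the other alternatives. Perp, a membrane protein needed for desmosome assembly, had 573 and 560.3 (vehicle) against 185 and 157 (imatinib) and fell to 30.1% of vehicle (log2 difference -1.57 ± 0.15).

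Of 8 brush border genes measured, 7 were lower, with a median of -1.32. Prom1, whose product prominin marks membrane protrusions, had signals of 3152 and 3262 under vehicle and 537 and 566 under imatinib and fell to 17.2% of vehicle (log2 difference -2.47 ± 0.09, limma adjusted p = 5.2e-08). Vil1, the actin bundler villin of microvilli, had 413 and 405 (vehicle) against 127 and 155 (imatinib) (log2 difference -1.36 ± 0.17). Cdhr5 encodes a protocadherin that ties the tips of microvilli together. Its signals were 355 and 321 (vehicle) against 144 and 209.5 (imatinib) (log2 difference -0.84 ± 0.19). It did not pass without vehicle replicate 1 or without imatinib replicate 1 (-0.77 to -0.61), without a filter or without the mean-variance trend.

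The unconventional myosins differed in size of change. Myo5b, the motor of apical recycling endosomes, had 173 and 179 (vehicle) against 39.4 and 27.8 (imatinib), with both imatinib arrays below the filter, and 19.1% of its vehicle signal remained (log2 difference -1.67 ± 0.27). Myo1d, a membrane-bound class I myosin, had 382 and 318 (vehicle) against 89.1 and 107 (imatinib) (log2 difference -1.55 ± 0.19). Myo6, which moves toward the base of microvilli in endocytosis and is widely expressed, had 360.1 and 395 (vehicle) against 115 and 158 (imatinib) (log2 difference -1.29 ± 0.19). Myo7b, part of the tip complex of microvilli with Cdhr5, had 132 and 177 (vehicle) against 49.2 and 71.4 (imatinib) (log2 difference -1.01 ± 0.27). Its call was lost without vehicle replicate 2 or without imatinib replicate 1 (both -0.84), without a filter and with quantile normalization.

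Ezr encodes ezrin, which links actin to the plasma membrane in microvilli and in leukocytes. Its brightest probe set had signals of 1391 and 1362 under vehicle and 1155 and 1262 under imatinib. The groups did not overlap but lay close together, the log2 difference was -0.18 ± 0.10, and the gene did not pass (limma adjusted p = 0.25). Without imatinib replicate 1 it was -0.12, and with spike-in controls set equal its difference was 0.13. The dimmer probe set of the same gene fell from 405 and 345 to 78.1 and 204 (log2 difference -1.33 ± 0.30), so the 2 probe sets disagreed in size and in call. Ezr passed when its 2 probe sets were averaged and when macrophage markers were set equal.

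The remaining pair consists of Fabp2 and St14. Fabp2 encodes the fatty acid-binding protein of enterocytes. Its signals were 1822 and 1694 under vehicle and 305 and 368 under imatinib, and 19.2% of the vehicle signal remained (log2 difference -2.28 ± 0.12, limma adjusted p = 4.8e-07). St14 encodes matriptase, a serine protease of epithelial surfaces that some leukocytes also make. It had signals of 385 and 413 (vehicle) against 189 and 201 (imatinib) and kept 48.9% of its vehicle signal (log2 difference -0.92 ± 0.16).

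**Figure D2:**
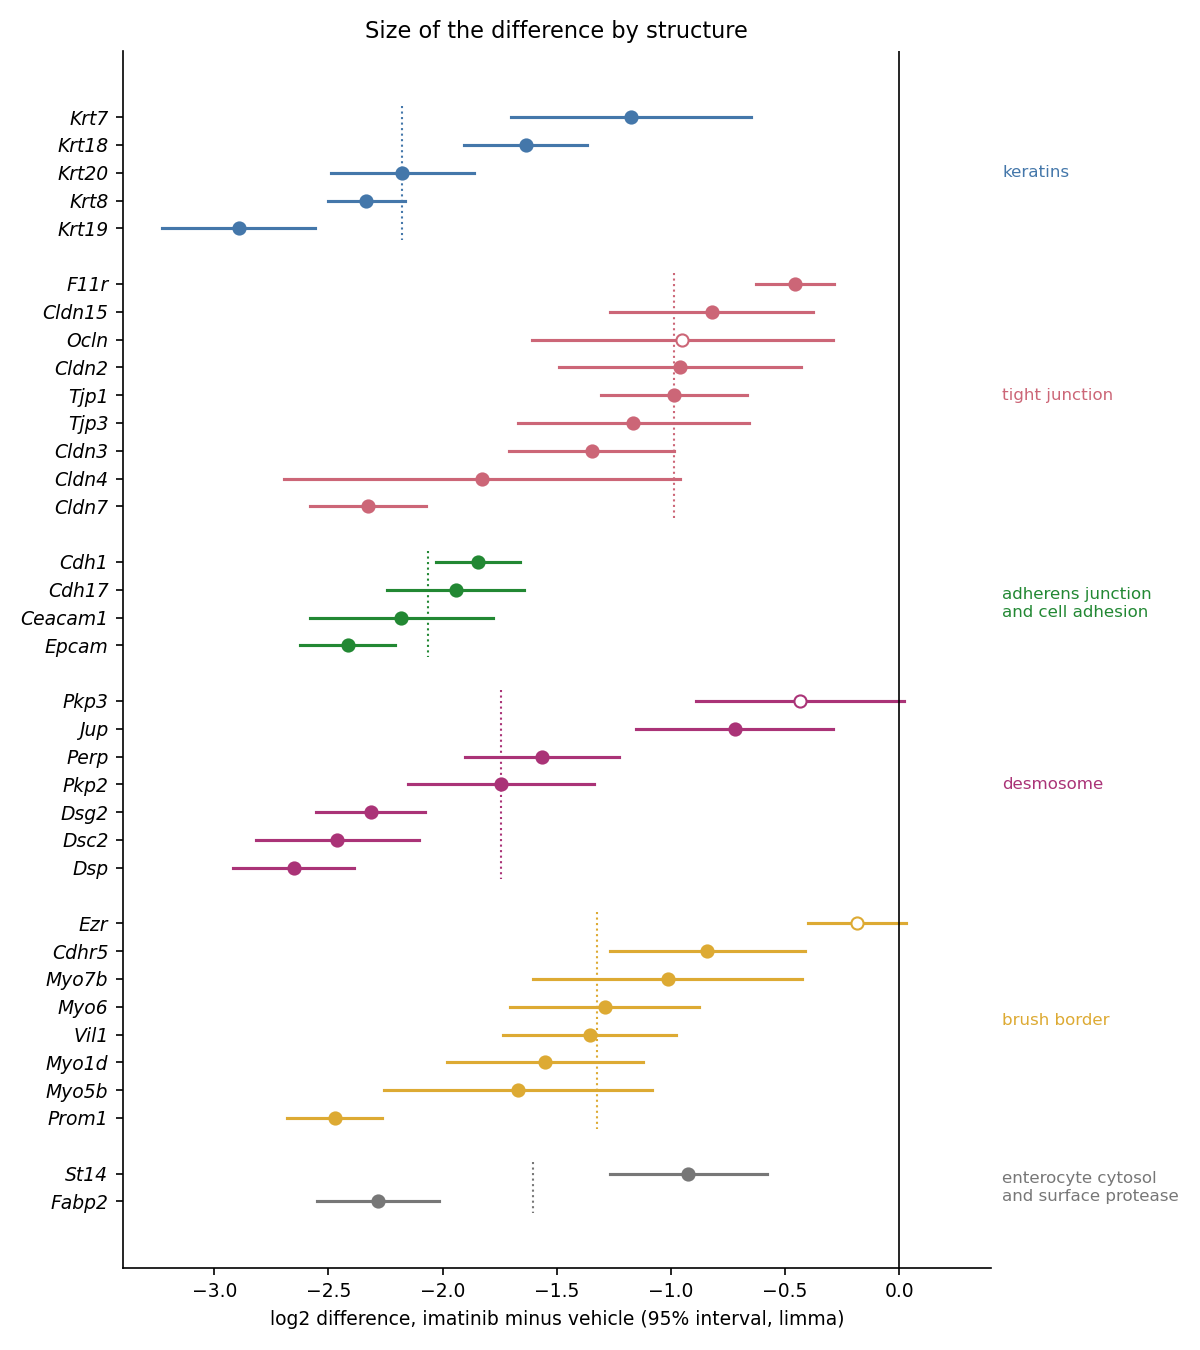
Log2 difference (imatinib minus vehicle) of each of the 35 genes with its 95% interval from limma, by structure. Filled points passed the test, open points (Ocln, Pkp3 and Ezr) did not, and dotted lines mark the structure medians, from -2.18 for keratins to -0.99 for tight junctions.

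Ordered by their medians, the structures ran from keratins (-2.18) and the adherens and adhesion genes (-2.06) through desmosomes (-1.74), Fabp2 with St14 (-1.60) and the brush border (-1.32) to tight junctions (-0.99). The keratin median minus the tight junction median was -1.19. The ranges of the structures overlapped: the largest fall of every structure reached -2.28 or lower, and the smallest differences were close to 0 in the brush border and the desmosome. Medians over 2 to 9 genes that share arrays are a description, and no test of the difference between structures was made. The order changed under several settings, of which these are examples. With the 60th percentile filter desmosomes (-2.39) came before keratins (-2.26). The adherens and adhesion genes came before keratins with a pseudocount 4 times the main one (-1.95 and -1.77), without vehicle replicate 1 (-2.14 and -2.09) and without imatinib replicate 2 (-2.21 and -2.10). Adding 32 to each signal compresses the differences of dim genes. With a pseudocount of 1 the medians of tight junctions and desmosomes were -1.32 and -2.06. Over the 35 genes the log2 vehicle level and the log2 difference had a Pearson r of -0.58, so brighter genes tended to fall more. The value was -0.43 with the differences from a pseudocount of 1. The part of signal level in the order of the structures was not tested.

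To compare the genes with each other within arrays, each was set against Epcam, by subtracting the log2 signal of Epcam on the same array from every gene and repeating the fit over all tested genes. On this scale 0 means a fall as large as that of Epcam. Of 34 genes, 23 had a 95% interval above 0 and so fell less than Epcam, against 99.3% of all tested genes. With a pseudocount of 1, 21 did, and the intervals of Myo5b, at 0.10 (95% interval -0.79 to 1.00), and Pkp2, at 0.42 (95% interval -0.07 to 0.92), then included 0. Krt19 had an interval below 0, at -0.48 (95% interval -0.84 to -0.12), against 0.0246% of all tested genes. Its interval included 0 without vehicle replicate 1, at -0.31 (95% interval -0.65 to 0.03), and without imatinib replicate 2, at -0.24 (95% interval -0.60 to 0.11). Without imatinib replicate 1, both Krt19 and Dsp had intervals below 0.

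For the other 10 genes the interval included 0: Krt8, Krt20, Cldn7, Cldn4, Ceacam1, Dsp, Dsc2, Dsg2, Prom1 and Fabp2. The interval of Krt8 was narrow, at 0.08 (95% interval -0.12 to 0.28), as was that of Prom1, at -0.06 (95% interval -0.28 to 0.17). That of Cldn4 was wide, at 0.59 (95% interval -0.22 to 1.40), so its fall relative to Epcam was poorly fixed. Among partners in one structure, Krt18 lay at 0.78 (95% interval 0.50 to 1.06) where Krt8 lay near 0. Within the desmosome Dsp, Dsc2 and Dsg2 included 0 while Pkp2, at 0.67 (95% interval 0.26 to 1.09), and Jup, at 1.69 (95% interval 1.25 to 2.14), had intervals above 0. Cdh1 fell less than Epcam as well, at 0.57 (95% interval 0.36 to 0.78). Farthest from Epcam were Ezr, at 2.23 (95% interval 2.00 to 2.46), Pkp3, at 1.98 (95% interval 1.51 to 2.45), and F11r, at 1.96 (95% interval 1.75 to 2.17).

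**Figure D3:**
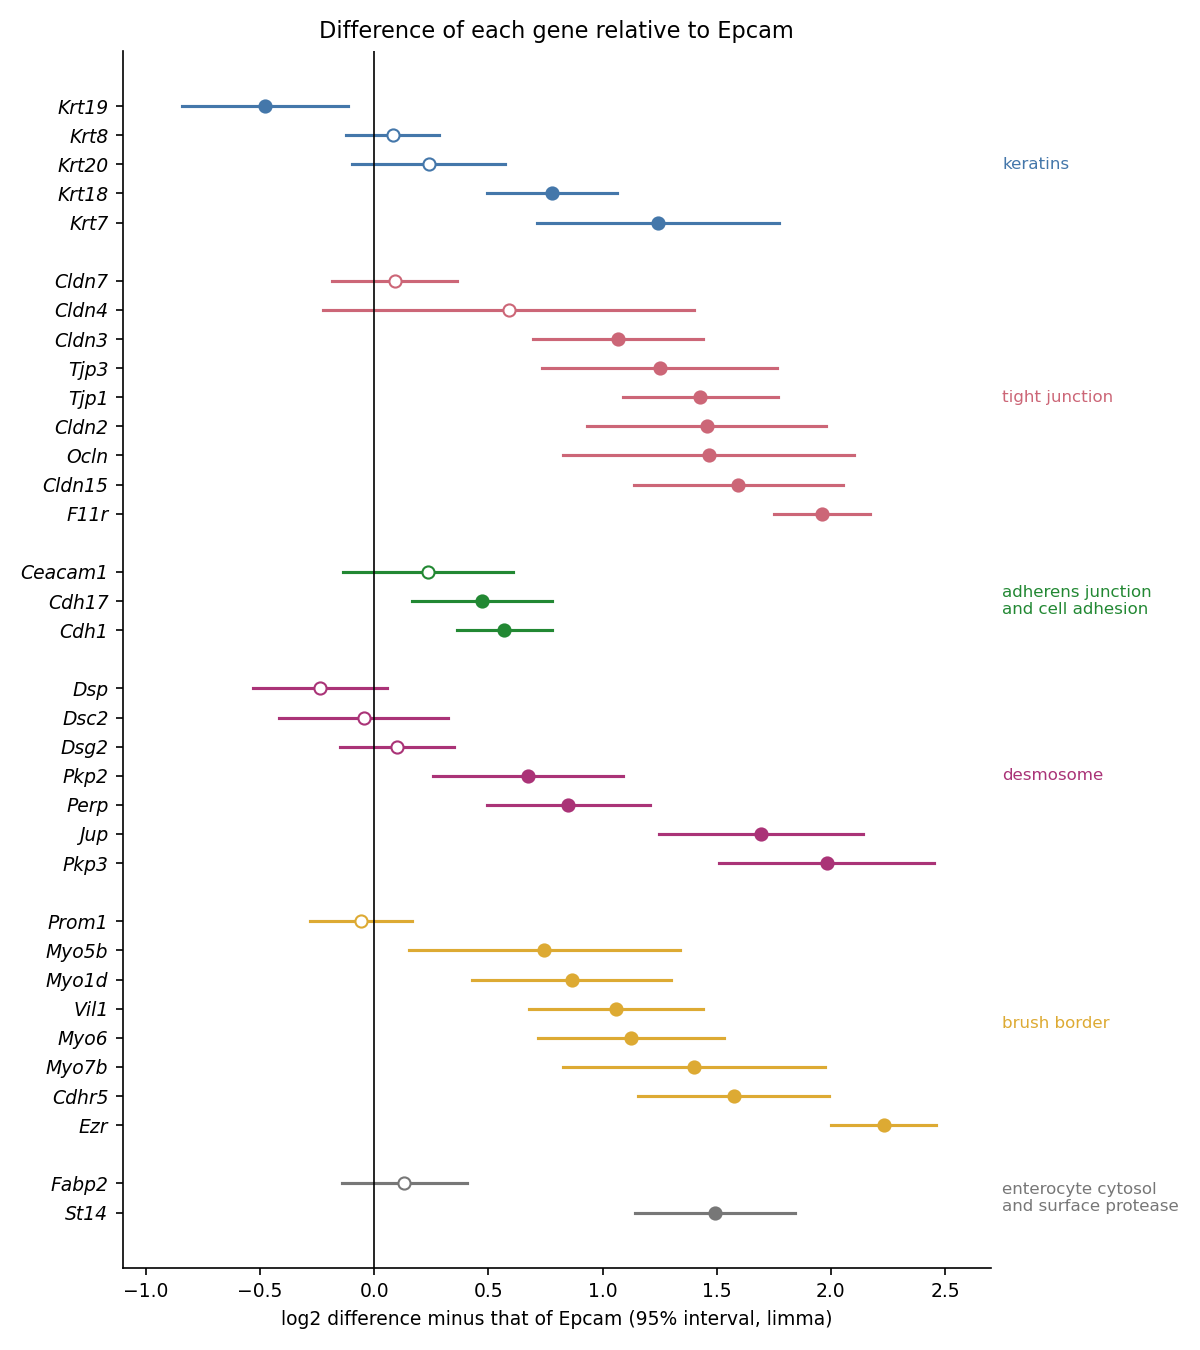
Log2 difference of 34 genes minus that of Epcam, with 95% intervals from limma, by structure. Filled points have intervals that leave out 0, and open points are the 10 genes whose interval includes 0. Krt19 is the one filled point left of 0.

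Other probe sets of the same genes on the same arrays were fitted as well. The 35 genes had 64 probe sets with a single symbol, and 12 genes had more than 1. Of the 29 that were not the brightest of their gene, 18 from 8 genes passed the signal filter, and 17 of these were lower, against 7.42% of all probe sets tested. For 6 of the 18, from Ceacam1, Cldn3, Dsg2, Myo6 and Pkp2, the imatinib mean lay below the filter, so that a lower imatinib value was built in. The 12 above the filter in both groups were all lower. The log2 differences of the 18 ran from -2.65 to -0.77, with a median of -2.08. The 3 probe sets of Krt8 lay between -2.33 and -2.26. The 7 of Ceacam1 above the filter lay between -2.65 and -1.72, and the 4 of Cldn3 between -2.15 and -1.29. The dimmer probe set of Myo6 did not pass (-0.77 ± 0.26, limma adjusted p = 0.083). Below the filter, the second probe set of Cldn2 had signals of 89.6 and 64.5 with vehicle and 80.2 and 77.3 with imatinib, which overlap.

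**Figure D4:**
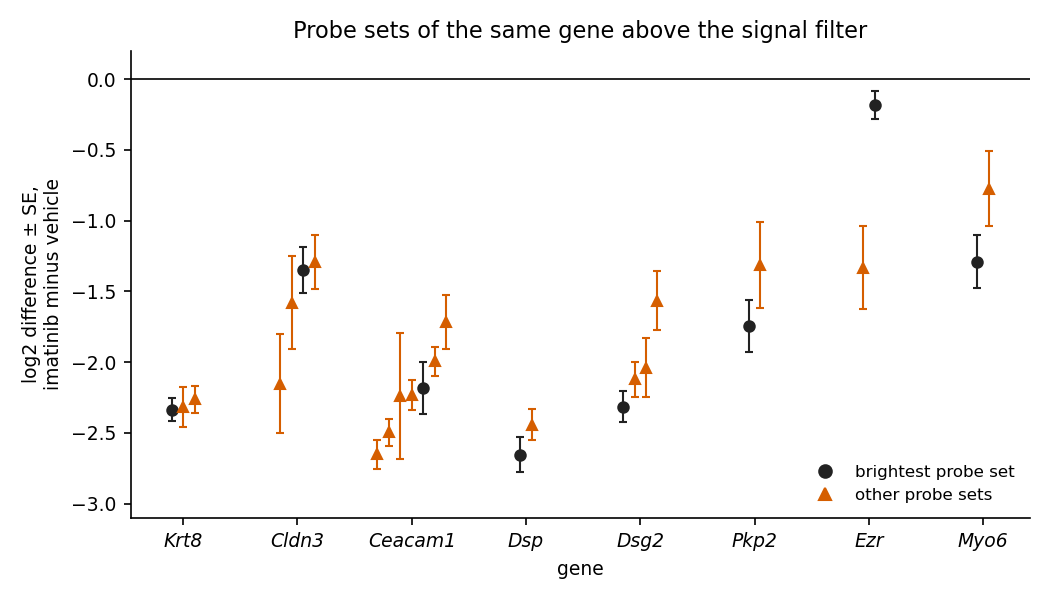
Log2 difference (imatinib minus vehicle) ± SE of every probe set above the signal filter, for the 8 genes with more than 1 such probe set. Circles are the brightest probe set and triangles the others. Probe sets of Krt8 and Dsp lie close together, and those of Ezr lie apart.

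Of 86 other genes of keratin filaments, tight and adherens junctions, desmosomes and the brush border, 33 were tested. Against 8.73% lower and 6.8% higher of all tested genes, 13 of the 33 were lower and 1 higher. Their median log2 difference was -0.35. Cldn23, Nectin3 and Mep1b, 3 of the 13, had mean log2 signals with imatinib below the filter and were tested only because of their vehicle signal, and 10 of the 29 genes above it in both groups were lower. Other tight junction genes were lower in 3 of 9 cases: the polarity gene Crb3 (-1.56 ± 0.20), the claudin gene Cldn23 (-1.12 ± 0.25) and the polarity gene Llgl2 (-1.03 ± 0.24). Of 8 other adherens genes 3 were lower. Nectin3, an adhesion receptor, had signals of 351 and 359 (vehicle) against 97.1 and 62.8 (imatinib) (log2 difference -1.81 ± 0.21), while the widely expressed genes for vinculin (Vcl, -0.62 ± 0.14) and alpha-catenin (Ctnna1, -0.39 ± 0.09) had smaller differences.

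Of 13 other brush border genes 7 were lower. The meprin protease gene Mep1b had 285 and 363 (vehicle) against 88.4 and 13.7 (imatinib), with the imatinib arrays far apart (log2 difference -2.26 ± 0.38). The membrane mucin gene Muc13 fell from 1970.4 and 1873 to 433 and 368 (log2 difference -2.18 ± 0.11). The actin bundler gene Pls1 (-1.49 ± 0.16) and the adhesion gene Tmigd1 (-1.34 ± 0.17) fell too. The 1 gene that was higher, Slc9a3r1 (0.35), encodes a scaffold that binds ezrin. Neither of 2 other desmosomal genes passed (limma, 0 at an unadjusted p under 0.05), with log2 differences of 0.06 ± 0.15 for Pkp4 and -0.16 ± 0.38 for Ppl. The 1 other keratin tested, Krt80, was at 0.44 ± 0.17 and did not pass. Genes of the protease system around matriptase were lower in 3 of 4 cases, among them Spint2, which encodes an inhibitor of matriptase (-2.04 ± 0.10), and the protease genes Tmprss2 (-1.61 ± 0.17) and Tmprss4 (-1.42 ± 0.19).

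Other epithelial genes moved with these structures on the same arrays, where 8.73% of all tested genes were lower. Of 8 goblet and secretory genes tested all 8 were lower, with a median log2 difference of -1.45, and their summed signal was 28080.1 and 28368 (vehicle) against 7782 and 8229.5 (imatinib). Of 8 epithelial transcription factor genes 6 were lower, with a median of -1.32. The imatinib mean of 3 of them (Grhl2, Esrp1 and Esrp2) lay below the filter, and of the other 5, 4 were lower. Differences between these lists and the structural genes were not tested.

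Some markers of other cell types differed as well. Over all tested genes 8.73% were lower and 6.8% higher. Fibroblast and macrophage markers are given here. Smooth muscle, Cajal and GIST, B and plasma cell and dendritic cell markers, which also held called genes, are given under the other observations. Of 10 fibroblast markers 7 were lower (log2 differences of all 10 from -1.51 to -0.18), with a summed signal of 7939 and 8569 (vehicle) against 3960.5 and 4380.4 (imatinib). Of 15 macrophage markers 12 were higher and none lower (limma, 0 lower at an unadjusted p under 0.05), with a median of 0.39 and a summed signal of 153759 and 153786 (vehicle) against 187999 and 196356 (imatinib). The part of these cell types, of the 3' to 5' ratio and of the spike-in controls in the difference of the structural genes was not tested.

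The counts were repeated on other scales and filters, since a scale moves all genes together. When the mean of the macrophage markers was set equal on all arrays, all 35 structural genes were lower (median -2.08), but so were 72.7% of all tested genes, and 1.08% were higher. When the spike-in controls were set equal, 29 of 35 were lower (median -1.25), against 5.11% of all tested genes, of which 31.9% were higher. With equal array medians 30 of 35 were lower, against 6.04% lower and 12.9% higher over all tested genes. Quantile normalization left 30 lower (8.42% of all tested genes), and the absence of a signal filter left 26 (4.37%). A filter at the 60th percentile left 22 of 23 (9.1%), and a block for the replicate number left 32 of 35 (7.8%). The calls of 23 genes held under every one of the 18 alternatives in which they could be tested, among them Krt8, Krt18, Krt19, Krt20, Cldn3, Cldn7, Tjp1, Epcam, Cdh1, Cdh17, Dsp, Dsg2, Dsc2, Prom1, Vil1 and Fabp2.

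**Figure D5:**
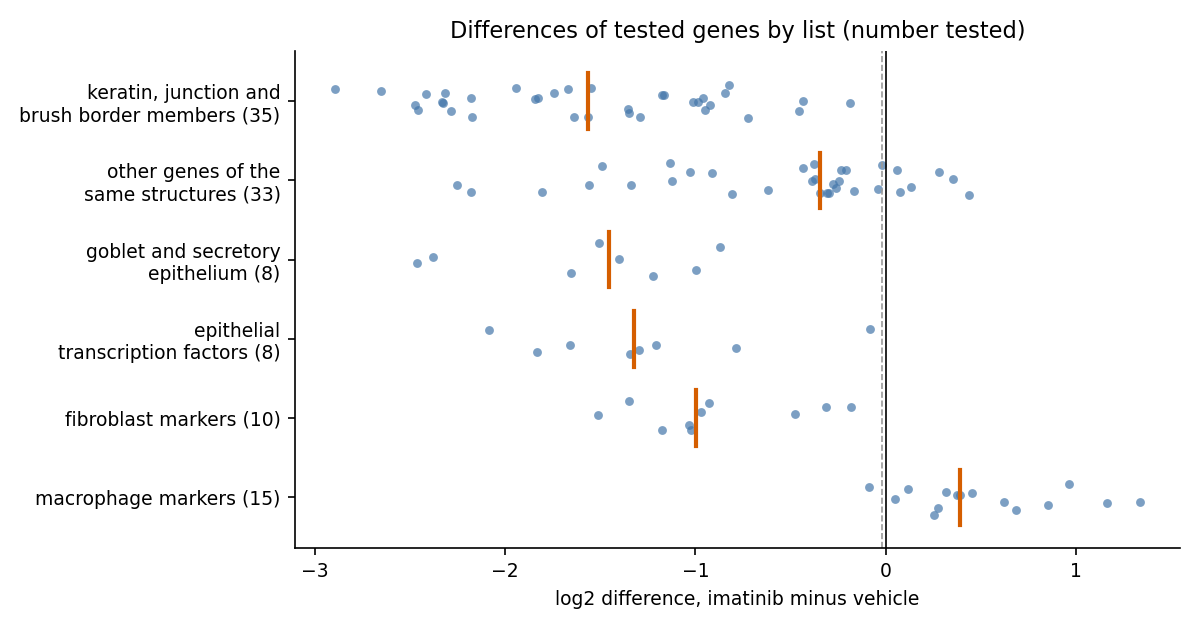
Log2 difference (imatinib minus vehicle) of each tested gene (points) by list, with the list median (vertical bar) and the median of all tested genes (dashed line, -0.02). The structural genes, the secretory genes and the epithelial transcription factors lie left of 0, and the macrophage markers lie mostly right of it.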

How the data were processed

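The values are linear intensities of Affymetrix probe sets that the authors computed with MAS5 (run in Affymetrix Expression Console, as recorded per the submitters' processing notes). The software versions and settings are not stated there. MAS5 corrects background and sets each array to a common trimmed mean, so dim signals are noisy and a change in bright transcripts shifts the rest. Of 22690 probe sets, 64 controls were left out of the tests; 20380 had 1 gene symbol in the platform annotation, 691 several and 1555 none. The symbols of the 35 genes matched RefSeq by gene ID. Levels of different probe sets were not ranked, since their affinities differ.

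Signals were transformed to log2(signal + 32). The brightest probe set of each gene was tested if its mean reached the 40th percentile of probe sets, and 8145 genes were compared with limma (lmFit, eBayes with trend, two-sided, Benjamini-Hochberg over all tested genes, threshold 0.05). Errors are SD for signals and SE for log2 differences. The procedure was tested on simulated arrays. The genes, lists, motifs and tests were chosen with earlier results of these data known. All 35 measured genes are named; of each list of other genes of these structures, up to 4 called genes by size, or the 2 brightest tested where none was called; of the macrophage markers, Csf1r, Lyz2 and Adgre1 as defining markers, whatever their change. Slc9a3r1 and the genes named for an imatinib mean below the filter were named after their values were seen. Analyses used R 4.3.3, limma 3.58.1, Python 3.11.15, pandas 2.3.3, numpy 2.4.6 and matplotlib 3.10.9.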

Additional observations from a re-analysis of the deposited data

How the results depend on the processing

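The count of lower genes stayed between 22 and 35 under the 18 alternatives, and no gene was higher under any of them. Leaving out probe sets with an s, x or a suffix left 25, of which 23 were lower, against 513 of all 6443 genes then tested. The median log2 difference moved with the scale: it was -1.73 with a pseudocount of 1, -1.08 with one 4 times the main pseudocount, -1.94 with the 60th percentile filter, -1.50 with quantile normalization, -1.40 with equal array medians, -2.08 with equal macrophage markers and -1.25 with equal spike-in controls, an alternative added after seeing the data. The median of all tested genes moved from -0.02 to 0.14, -0.54 and 0.30 under the last 3 scales. Leaving out 1 array at a time leaves 1 array in a group that is assumed to vary like the other group. These fits gave medians of -1.65 to -1.45 and a keratin minus tight junction median of -1.28 to -0.90. Ezr changed sign with equal spike-in controls, to 0.13, where it did not pass; the other 34 genes stayed negative throughout. Over the whole table, 711 lower and 554 higher genes became 541 and 356 with no filter and 517 and 199 with no mean-variance trend. Against Cdh1 in place of Epcam, 16 genes fell less and 10 more. The replicate block gave 32 lower genes, and a crossed block, added after seeing the data, gave 33. Deviations of same-numbered arrays correlated at -0.13 and those of crossed pairs at 0.13. With 2 arrays per group these values mirror each other by construction, so they cannot show whether the numbers pair the arrays. Over the whole table the block gave 635 lower and 430 higher genes and the crossed block 1087 and 875. Signal near background limits Krt7, Cldn2, Cldn4, Ocln, Myo5b and Myo7b, whose imatinib mean lay below the filter. The cause of these changes was not tested.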

Other observations

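Filament and junction genes of other cell types, which the text above leaves out, were lower in 4 of 11 cases, with a median log2 difference of -0.41, and none was higher (limma, 0 at an unadjusted p under 0.05). Gja1, the gap junction gene of stromal and muscle cells, had signals of 5736 and 6061 under vehicle and 2113 and 2059 under imatinib (log2 difference -1.48 ± 0.08). Cdh11, a cadherin of fibroblasts, had 305 and 312 (vehicle) against 96.8 and 125 (imatinib) (log2 difference -1.26 ± 0.19). Nes, which encodes the intermediate filament nestin, had 629 and 526 (vehicle) against 288 and 331 (imatinib) (log2 difference -0.83 ± 0.15), and Rdx, which encodes the ezrin relative radixin, had a log2 difference of -0.41 ± 0.11. None of 5 endothelial markers passed (limma, 0 at an unadjusted p under 0.05), with a median of -0.01. Smooth muscle markers were lower in 1 of 3 cases, markers of interstitial cells of Cajal and GIST in 1 of 3, and T cell markers in 0 of 5 (limma, 0 at an unadjusted p under 0.05). Of 5 B and plasma cell markers 1 was lower and 2 higher, and of 5 dendritic cell markers 2 were higher. The shares over all tested genes were 8.73% lower and 6.8% higher. Marker lists this short do not show whether a cell type differed as a whole.

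Imatinib replicate 1 was the lower of the imatinib arrays for 23 of the 35 structural genes and the higher for 12. Vehicle replicate 1 was the lower of the vehicle arrays for 19 and the higher for 16. The same counts were not made over all tested genes. The array median was also lower on imatinib replicate 1 than on replicate 2 (122 against 134), and higher on vehicle replicate 1 (152 against 141). These counts therefore cannot be read as a trait of the structural genes.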
